A study of Mus musculus with 6 samples.

Results

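Hedgehog signaling starts when a secreted ligand, one of Sonic (*Shh*), Indian (*Ihh*) or Desert hedgehog (*Dhh*), binds the receptor Patched (*Ptch1*). Unbound Patched keeps the membrane protein Smoothened (*Smo*) off. Ligand binding lifts this block, Smoothened signals from the primary cilium, and the Gli transcription factors are released from Sufu (*Sufu*). *Gli1* and *Gli2* mostly activate and *Gli3* mostly represses, and *Ptch1*, *Hhip* and *Gli1* are themselves targets, so that their transcripts are widely used as a readout of the pathway. In lung, epithelial cells are the usual source of ligand and the mesenchyme next to them is the usual responder.

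The set described here comprised 9 genes, *Ihh*, *Shh*, *Ptch1*, *Hhip*, *Smo*, *Sufu*, *Gli1*, *Gli2* and *Gli3*, taken from the deposited table of 24421 genes by exact match of their symbols. All 9 were found, and all 9 were among the 16723 genes that passed the filter on low counts. *Ihh* was selected on its measured values, its higher level with active BMP signaling in these libraries, so its difference is given as a description with no test. The other 8 were taken for their place in the pathway.

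The libraries were made from alveolar type 2 (AT2) cells, the surfactant-producing epithelial cells of the lung alveolus, of 6 adult mice. The 3 AT2CTRL mice carried Sftpc-CreERT2 and a R26-tdTomato reporter (aged 12, 16 and 12 weeks for replicates 1, 2 and 3). The 3 AT2CAB mice carried the same driver, R26-tdTomato on one Rosa26 allele and R26-caBmpr1a, a constitutively active form of the BMP receptor BMPR1a, on the other (aged 16, 12 and 12 weeks). All 6 mice thus shared the tamoxifen-dependent Cre, which is expressed from the surfactant gene *Sftpc*, and the tdTomato label by which cells were sorted. Because label and receptor lay on separate alleles, a sorted AT2CAB cell could carry the label without the active receptor. The comparison of AT2CAB with AT2CTRL asks how continuous BMP signaling alters these cells.

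The libraries held between 21554249 and 28440227 counts, and 3 counts corresponded to between 0.0976 and 0.138 CPM (counts divided by the library's total in units of 1e+06, scaled by TMM factors). Reads on 4 Y-linked genes summed to 176.4 CPM in AT2CTRL replicate 1 and 146.3 CPM in AT2CAB replicate 3 and were at 0 in the other 4 libraries, so all 9 members are also given without those 2 libraries. Counts per gene do not separate the transgene from the endogenous gene. *Bmpr1a* was at 105.4, 129.9 and 124.7 CPM in AT2CTRL and 131.1, 128.4 and 96.8 CPM in AT2CAB, which does not check the allele. *Sftpc*, which defines AT2 cells, was at 42700 CPM or more in every library.

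To show what lies upstream of the induced ligand and of its receptor, the RefSeq windows of 250 bases directly upstream of the transcript start of *Ihh* (build GRCm38.p6, the assembly behind mm10, chr1:74951673-74951922, minus strand) and of the receptor *Ptch1* (chr13:63565736-63565985, minus strand) are printed 5′ to 3′. Capitals mark matches, on either strand, to GTCT (or its reverse complement AGAC), the box bound by SMAD proteins, and to GGCGCC, a GC-rich element of the kind bound by the SMADs of the BMP branch.
Ihh: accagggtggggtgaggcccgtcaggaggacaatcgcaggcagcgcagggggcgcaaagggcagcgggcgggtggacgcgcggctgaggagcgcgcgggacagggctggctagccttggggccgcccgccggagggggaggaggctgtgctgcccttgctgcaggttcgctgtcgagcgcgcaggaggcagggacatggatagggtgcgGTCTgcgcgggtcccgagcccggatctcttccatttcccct
Ptch1: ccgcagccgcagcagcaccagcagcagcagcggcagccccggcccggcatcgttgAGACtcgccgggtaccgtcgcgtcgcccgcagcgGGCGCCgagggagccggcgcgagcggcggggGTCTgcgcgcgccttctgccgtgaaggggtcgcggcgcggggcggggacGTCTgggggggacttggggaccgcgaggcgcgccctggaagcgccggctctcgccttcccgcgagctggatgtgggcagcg

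The *Ihh* window held 1 GTCT match, 41 bases before the start, and no GGCGCC. The *Ptch1* window held 3 GTCT matches and 1 GGCGCC. The short GTCT box was in 82.9% of the 32851 RefSeq mouse windows of this length, whereas GGCGCC was in 9.59% and the Gli consensus GACCACCCA in 0.225%. These shares are not matched for base content. G and C made up 72% of the *Ihh* window, 78.4% of that of *Ptch1* and 54% of that of *Sufu*, against a median of 52.4% over all windows. Windows were given for 7 of the 9 members, all but *Shh* and *Gli1*. *Sufu* also held 1 GGCGCC and 3 GTCT matches, *Smo* and *Gli2* each held 2 GTCT matches, *Gli3* held 1 and *Hhip* none, and the Gli consensus was in none of the 7. These matches describe letters in the windows and not binding.

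*Ihh*, the ligand best known from growth plate cartilage and gut, was low in all controls and higher in every AT2CAB library. Its raw counts were 36, 54 and 52 in AT2CTRL and 274, 559 and 1300 in AT2CAB. These corresponded to 1.61, 2.31 and 1.98 CPM against 12.6, 21.7 and 42.3 CPM. The groups did not overlap, and the lowest AT2CAB library was 5.43-fold above the highest control. The means were 1.97 ± 0.350 and 25.5 ± 15.2 CPM (SD, n = 3), a log2 fold change of 3.69 (SE 0.44) that ranked 11 among the 16723 genes tested, counted from the largest increase. The AT2CAB libraries differed among themselves by 3.37-fold, replicate 3 being the highest, and without replicate 3 the log2 fold change was 3.16. In the 4 libraries without Y-linked reads it was 3.03, with means of 2.15 and 17.1 CPM.

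*Ihh* lies on chromosome 1 (mm10, 74945318 to 74951651, minus strand), with 3 listed exons that sum to 2444 bases. Of the 6 other genes of the table within 100 kb, *Cdk5r2*, *Fev*, *Cryba2* and *Mir375* were below the filter on low counts and were not tested. *Cdk5r2* held 0, 2 and 0 counts in AT2CTRL and 2, 6 and 40 in AT2CAB, and *Fev*, *Cryba2* and *Mir375* overlapped between the groups. *Nhej1*, which encodes a factor of DNA end joining and whose nearer end lies 15695 bases away, was at 3.72, 2.66 and 2.82 CPM in AT2CTRL and 2.38, 3.26 and 2.90 CPM in AT2CAB. Its log2 fold change was -0.10 (adjusted p = 0.930, edgeR's quasi-likelihood test), and that of *Ccdc108*, at 9719 bases, was 0.39 (adjusted p = 0.847 by the same test). Neither passed the test.

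*Shh*, the ligand that the airway epithelium uses during lung branching, was the most abundant hedgehog ligand in both groups. It was at 41.6, 28.2 and 31.6 CPM in AT2CTRL and 46.7, 72.7 and 67.5 CPM in AT2CAB. Every AT2CAB library was above every control, but by a narrow margin, since AT2CAB replicate 1 was 1.12-fold above AT2CTRL replicate 1. The means were 33.8 ± 6.99 and 62.3 ± 13.8 CPM (SD, n = 3), and the log2 fold change of 0.88 (SE 0.20) did not pass the threshold (edgeR's quasi-likelihood test, adjusted p = 0.202). Of 15 other settings, DESeq2 alone put it under 0.05 (log2 fold change 0.90, adjusted p = 0.00674), and the 15 adjusted p-values ranged from 0.00674 to 0.677. An exon of *Shh* overlaps the antisense gene *9530036O11Rik*, and since the counting did not use strand, reads shared by their exons were left out of both counts.

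The makeup of the ligand transcripts differed between the groups. Values per kb of exon are used here because they allow genes of different length to be set side by side. The 3 ligands summed to 17.5, 11.8 and 13.0 CPM per kb in AT2CTRL and to 22.9, 36.5 and 43.9 CPM per kb in AT2CAB. *Ihh* made up 3.78%, 8.04% and 6.22% of that sum in AT2CTRL and 22.5%, 24.3% and 39.4% in AT2CAB, a shift that follows from the choice of *Ihh*. *Shh* remained the larger share, at 89.2%, 89.7% and 90.8% in AT2CTRL and 76.6%, 74.8% and 57.6% in AT2CAB. Per kb, *Shh* was 23.6-, 11.1- and 14.6-fold above *Ihh* in AT2CTRL and 3.41-, 3.07- and 1.46-fold above it in AT2CAB. *Dhh*, the ligand of testis and nerve sheath, had a log2 fold change of -0.015 (SE 0.82, edgeR's quasi-likelihood test, adjusted p = 0.997). It was at 2.91, 0.643 and 0.914 CPM in AT2CTRL and 0.504, 0.776 and 3.09 CPM in AT2CAB. The highest library of each group was the one with Y-linked reads.

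**Figure D1:**
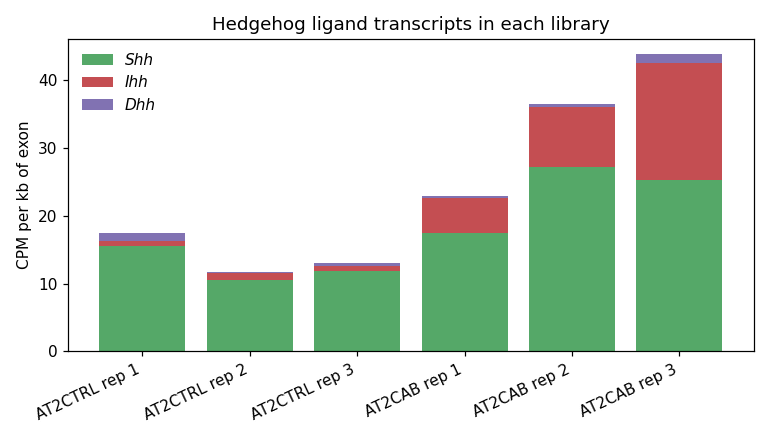
Stacked bars give the level of *Shh* (green), *Ihh* (red) and *Dhh* (purple) in CPM per kb of exon (y axis) in each of the 6 libraries (x axis). The sum lies between 11.8 and 17.5 in AT2CTRL and between 22.9 and 43.9 in AT2CAB, and *Shh* is the largest portion of every bar.

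*Ptch1*, the receptor and a target of the pathway, varied more within the groups than between them. It was at 29.5, 68.8 and 62.3 CPM in AT2CTRL and 52.3, 46.4 and 24.5 CPM in AT2CAB. The lowest library of each group was the one with Y-linked reads, and the groups overlapped. The means were 53.5 ± 21.1 and 41.0 ± 14.7 CPM (SD, n = 3), and the difference was -0.38 on the log2 scale (SE 0.35, edgeR's quasi-likelihood test, adjusted p = 0.751). In the 4 libraries without Y-linked reads the means were 65.5 and 49.3 CPM, the log2 fold change was again -0.38 and the adjusted p was 0.149. *Lrp2*, a large endocytic receptor of the hedgehog reception list, was lowest in the same 2 libraries, at 534.2 CPM in AT2CTRL replicate 1 and 412.2 CPM in AT2CAB replicate 3, against 965.9 to 1620.9 CPM in the others. It was singled out after its values were seen.

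*Hhip*, which encodes a membrane protein that binds and sequesters ligand, was at 2.51, 5.31 and 3.24 CPM in AT2CTRL and 6.42, 4.50 and 7.10 CPM in AT2CAB. The groups overlapped, since AT2CTRL replicate 2 was above AT2CAB replicate 2. Its log2 fold change was 0.70 (SE 0.34, edgeR's quasi-likelihood test, adjusted p = 0.554).

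*Smo*, the signal transducer held in check by Patched, was at 16.8, 23.6 and 26.3 CPM in AT2CTRL and 22.7, 29.5 and 21.2 CPM in AT2CAB. The groups overlapped, and the log2 fold change was 0.14 (SE 0.20, edgeR's quasi-likelihood test, adjusted p = 0.854). That value fell to -0.035 without AT2CTRL replicate 1 and to -0.0088 without AT2CAB replicate 2. *Sufu*, the cytoplasmic brake on the Gli factors, was at 37.7, 39.5 and 46.4 CPM in AT2CTRL and 37.1, 33.8 and 25.4 CPM in AT2CAB. Every AT2CAB library was below every control, the closest pair differing by less than 1 CPM, and the log2 fold change was -0.36 (SE 0.16, edgeR's quasi-likelihood test, adjusted p = 0.529).

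The activators and the repressor among the Gli factors had values on opposite sides of 0. *Gli3* was at 17.9, 18.9 and 19.4 CPM in AT2CTRL and 12.1, 12.8 and 16.3 CPM in AT2CAB, all 3 below the controls. Its log2 fold change was -0.45 (SE 0.15, edgeR's quasi-likelihood test, unadjusted p = 0.0176, adjusted p = 0.411), and -0.59 with an adjusted p of 0.113 in the 4 libraries without Y-linked reads. *Gli2*, with only 29 to 108 counts per library, was at 1.57, 1.24 and 1.33 CPM in AT2CTRL and 2.15, 1.90 and 3.52 CPM in AT2CAB. All 3 AT2CAB values were above the controls, and the log2 fold change was 0.87 (SE 0.41, edgeR's quasi-likelihood test, adjusted p = 0.545).

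*Gli1*, the target most often taken as the pathway's readout, was the lowest member and close to the limit of detection, with 13, 6 and 26 counts in AT2CTRL and 26, 24 and 46 in AT2CAB. This was 0.583, 0.257 and 0.990 CPM against 1.19, 0.931 and 1.497 CPM, and the groups overlapped. The log2 fold change was 0.97 (SE 0.60, edgeR's quasi-likelihood test, adjusted p = 0.642). An exon of *Gli1* overlaps *Arhgap9* on the opposite strand, and reads shared by their exons were left out of both counts. Per kb, *Gli3* was 9.10-, 12.1- and 11.6-fold above *Gli2* in AT2CTRL and 4.47-, 5.36- and 3.69-fold above it in AT2CAB. The ratio was computed after both genes' values were seen and has no test.

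**Figure D2:**
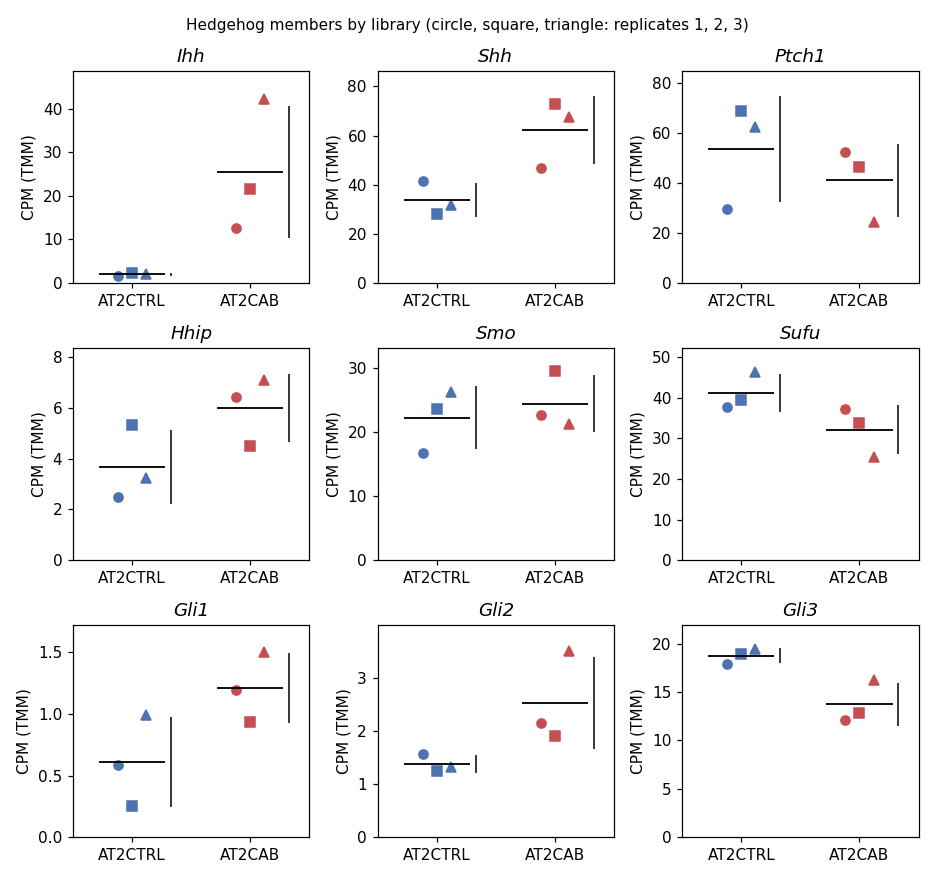
Each panel gives one member in CPM (y axis, from 0, scaled by TMM) for AT2CTRL (blue) and AT2CAB (red), with circles, squares and triangles for replicates 1, 2 and 3, horizontal lines for the mean and vertical bars for the mean ± SD (n = 3). *Ihh* lies between 1.61 and 2.31 in the controls and between 12.6 and 42.3 in AT2CAB, whereas *Ptch1*, *Hhip*, *Smo* and *Gli1* overlap between the groups.

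Taking the 8 members other than *Ihh*, 0 were called higher and 0 lower by edgeR's quasi-likelihood test, where a call needs an adjusted p under 0.05 together with a log2 change beyond 1 in either direction. Over all 16723 genes the shares called were 0.227% higher and 0.0120% lower. At an unadjusted p under 0.05, 1 of the 8 was higher (*Shh*) and 1 lower (*Gli3*), where 773 of the 16723 genes were higher and 844 lower, and DESeq2 put only *Shh* under an adjusted p of 0.05. The groups did not overlap for 4 of the 8, with *Shh* and *Gli2* above and *Sufu* and *Gli3* below the controls. The groups did not overlap for 17.1% of all genes, and 3 libraries against 3 cannot give an exact permutation p below 0.1. Of the 8 fold changes 5 were above and 3 below 0, with a median of 0.42, and the median of all genes tested was -0.0096. The adjusted p-values of the 8 ran from 0.202 to 0.854. In the 4 libraries without Y-linked reads, for the members not given above, the log2 fold change was 1.04 for *Shh*, 0.77 for *Gli1*, 0.68 for *Gli2*, 0.38 for *Hhip*, 0.10 for *Smo* and -0.25 for *Sufu*, and edgeR's quasi-likelihood test called none of them.

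The order of the members by level moved mainly at *Ihh*. Per kb of exon, the AT2CTRL means were 12.7 for *Shh*, 12.4 for *Ptch1*, 9.10 for *Sufu*, 5.59 for *Smo*, 2.23 for *Gli3*, 0.806 for *Ihh*, 0.406 for *Hhip*, 0.206 for *Gli2* and 0.167 for *Gli1*. Among neighbors in that order, *Shh* and *Ptch1*, *Ptch1* and *Sufu*, and *Gli2* and *Gli1* overlapped in their values over the 3 libraries. In AT2CAB *Ihh* came second at 10.4 CPM per kb, after *Shh* at 23.4 and beside *Ptch1* at 9.53, from which it did not differ beyond the spread. In terms of all genes tested, the mean level of *Ihh* per kb was at or above that of 24.7% of genes in AT2CTRL and 65.8% in AT2CAB. *Gli1* was at or above only 4.10% and 7.37%, and *Gli2* 5.94% and 9.10%.

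The wider pathway was read from 5 lists, for ligand processing and release, reception at the membrane, cytoplasmic relay, the primary cilium and Gli target genes. These held 56 genes outside the members, of which 55 were in the table and all 55 were tested. By edgeR's quasi-likelihood test 0 were called higher and 0 lower, DESeq2 gave the same counts, and the smallest adjusted p was 0.271. At an unadjusted p under 0.05, 3 were higher and 3 lower, against 773 and 844 of all 16723 genes. Their log2 fold changes ran from -0.67 to 0.80, with 30 above and 25 below 0 and a median of 0.023.

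Among the 7 genes for ligand processing and release, 4 were above 0 and the median log2 fold change was 0.36. Those furthest from 0 were *Scube3*, at 0.71, and *Scube1*, at 0.68, both encoding secreted proteins that help release lipid-bound ligand. Neither passed the test, with adjusted p-values of 0.768 and 0.545 by edgeR's quasi-likelihood test. *Scube3* held only 2, 10 and 11 counts in AT2CTRL and 14, 12 and 14 in AT2CAB. Its log2 fold change was 0.28 without AT2CTRL replicate 1 and 0.41 in the 4 libraries without Y-linked reads.

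Of the 7 reception genes 6 were above 0, with a median of 0.38. *Gpr161*, a ciliary receptor that keeps the pathway off, had a log2 fold change of 0.76 (edgeR's quasi-likelihood test, adjusted p = 0.747), and the co-receptor *Gas1* one of 0.65 (adjusted p = 0.593). The value of *Gpr161* rested on AT2CAB replicate 3, being 0.15 without it and 0.090 in the 4 libraries without Y-linked reads. *Gas1* was at 4.35, 4.16 and 2.70 CPM in AT2CTRL and 3.76, 5.70 and 8.10 CPM in AT2CAB, with the groups overlapping.

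Of the 17 genes tested for the cytoplasmic relay 13 were below 0, with a median of -0.13. Over all 16723 genes 8160 were above and 8563 below 0. By edgeR's quasi-likelihood test 0 of the 17 were higher and 0 lower at an unadjusted p under 0.05. *Gsk3b*, a kinase that marks Gli proteins for processing, had a log2 fold change of -0.34 (edgeR's quasi-likelihood test, adjusted p = 0.528), and *Kif7*, the kinesin of the cilium tip, one of 0.53 (adjusted p = 0.622). Of the 15 cilium genes 12 were above 0, with a median of 0.14. *Tulp3*, an adapter that carries receptors into the cilium, was at 14.5, 11.1 and 10.6 CPM in AT2CTRL and 16.4, 20.4 and 20.6 CPM in AT2CAB. Its groups did not overlap, and its log2 fold change of 0.67 (SE 0.17) had the smallest adjusted p of the wider pathway. *Efcab7*, which anchors the Smoothened module at the cilium base, had one of -0.41 (edgeR's quasi-likelihood test, adjusted p = 0.619).

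The 10 Gli target genes were split, 5 above and 5 below 0, with a median of 0.063. By edgeR's quasi-likelihood test 1 was higher (*Foxf1*) and 3 were lower (*Bmp4*, *Ccnd1* and *Ccnd2*) at an unadjusted p under 0.05. Over all 16723 genes 773 were higher and 844 lower at that level. *Osr1*, a mesenchymal transcription factor, had a log2 fold change of 0.80 (edgeR's quasi-likelihood test, adjusted p = 0.648), which was 0.25 in the 4 libraries without Y-linked reads. *Foxf1*, a transcription factor of lung mesenchyme and endothelium, was at 17.2, 43.6 and 27.7 CPM in AT2CTRL and 37.8, 66.4 and 48.8 CPM in AT2CAB, which gave 0.79 on the log2 scale (adjusted p = 0.494 by the same test). Of the 5 below 0, *Ccnd2*, which encodes a cyclin of the G1 phase and was picked out after its value was seen, was the lowest at -0.67 (adjusted p = 0.306 by the same test).

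**Figure D3:**
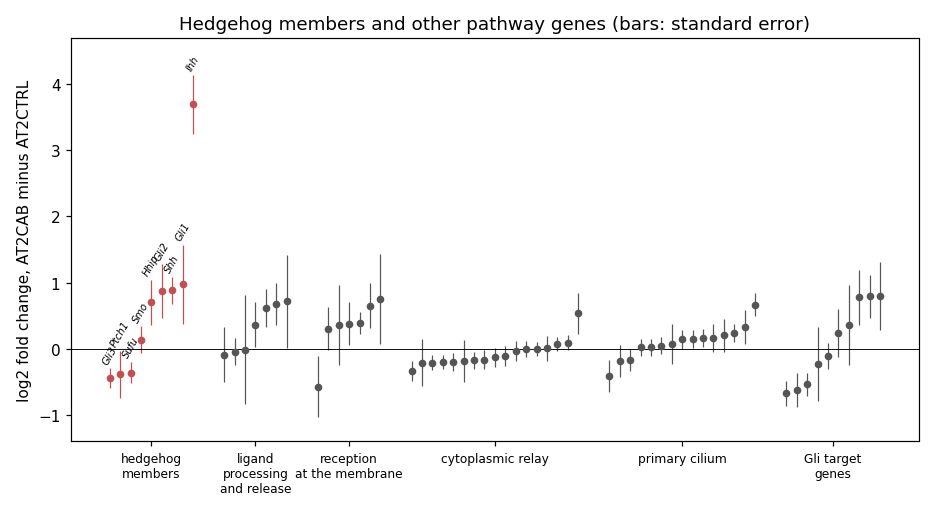
Points give the log2 fold change of AT2CAB over AT2CTRL from edgeR (y axis) with bars of ± 1 standard error, for the 9 members (red) and the genes of the 5 pathway lists (gray), ordered by value within each list (x axis). *Ihh*, chosen for its value, stands at 3.69, the other 8 members lie between -0.45 and 0.97, and the pathway genes lie between -0.67 and 0.80.

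Several of these genes are transcribed in lung mesenchyme, and markers of other cell types were measured in every library. The 12 stromal markers summed to 258.7, 394.5 and 317.2 CPM in AT2CTRL and 441.2, 578.6 and 488.8 CPM in AT2CAB. All 12 had fold changes above 0, with a median log2 value of 0.60 and none called. The 8 endothelial markers summed to between 202.8 and 427.9 CPM in AT2CTRL and between 372.0 and 608.6 CPM in AT2CAB, with a median log2 value of 0.62. The 8 leukocyte markers summed to 69.7, 72.6 and 81.8 CPM in AT2CTRL and 151.5, 97.8 and 62.6 CPM in AT2CAB, with 7 of 8 fold changes above 0, a median log2 value of 0.65 and none called. The AT1 marker sums, between 1888 and 2813 CPM in AT2CTRL and between 2150.2 and 2568 CPM in AT2CAB, overlapped. Of the 8 AT1 fold changes 6 were above 0, with a median log2 value of 0.33 and none called. The airway marker sums, between 618.8 and 816.4 CPM in AT2CTRL and between 595.9 and 813.6 CPM in AT2CAB, also overlapped. Of the 6 airway fold changes tested 4 were above 0, with a median log2 value of 0.15 and none called. The part of these cell types in the values of *Gli1*, *Gli2*, *Hhip*, *Osr1* and *Foxf1* was not tested. In RNA from a bulk population, more cells of a type and more RNA per cell cannot be told apart. The 8 AT2 markers summed to between 112545 and 127235 CPM in AT2CTRL and between 97511 and 107886 CPM in AT2CAB, with 7 of 8 fold changes below 0 and none called.

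**Figure D4:**
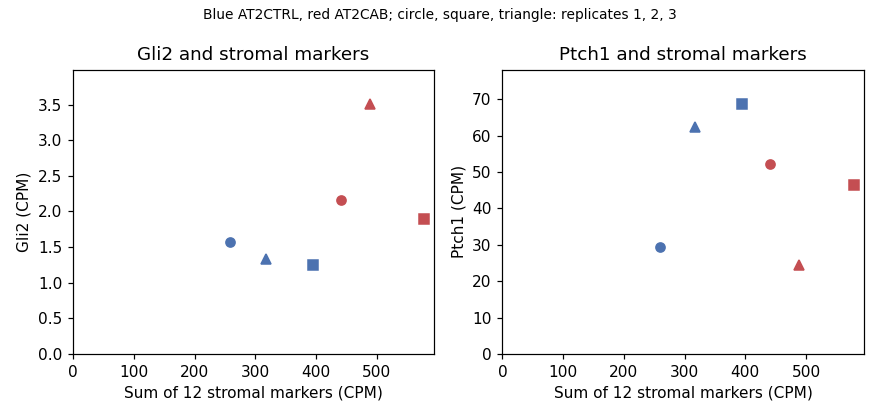
The CPM of *Gli2* (left) and *Ptch1* (right) on the y axes is set against the summed CPM of 12 stromal markers (x axes) in each library, with AT2CTRL in blue, AT2CAB in red and circles, squares and triangles for replicates 1, 2 and 3. The stromal sums are between 258.7 and 394.5 in AT2CTRL and between 441.2 and 578.6 in AT2CAB. *Gli2* is between 1.24 and 1.57 in AT2CTRL and between 1.90 and 3.52 in AT2CAB. Both are thus higher in every AT2CAB library, and the highest *Gli2* value is not in the library with the highest sum. The part of stromal cells in these values was not tested.

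Over the 6 libraries, the transcripts whose log2 CPM was most like that of *Ihh* were *Id1* (Pearson r = 0.997), *Tle3* (0.997), *Aldh3a2* (0.997), *Dcpp3* (0.997) and *Gss* (0.996). The libraries share 2 groups, so any gene that differs between the groups shares much of this pattern, and r is given as a description over 6 libraries. *Id1*, a direct target of BMP signaling, was at 18.5, 20.8 and 19.2 CPM in AT2CTRL and 124.4, 176.6 and 411.4 CPM in AT2CAB. *Tle3*, a co-repressor, was at 48.3, 52.8 and 49.3 CPM in AT2CTRL and 79.3, 98.7 and 121.9 CPM in AT2CAB. *Gss*, the last enzyme of glutathione synthesis, was at 22.5, 22.5 and 23.5 CPM in AT2CTRL and 51.9, 65.0 and 83.6 CPM in AT2CAB. In each of these, as in *Ihh*, AT2CAB replicate 1 was the lowest and replicate 3 the highest of its group. Their selection for likeness to *Ihh* over these same libraries favors that order. *Dcpp3* was at 0 counts in all controls and at 10, 25 and 56 counts in AT2CAB.

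*Ihh* and *Id1* kept nearly one ratio. *Ihh* divided by *Id1*, both in CPM, was 0.0872, 0.111 and 0.103 in AT2CTRL and 0.101, 0.123 and 0.103 in AT2CAB, so that the highest and lowest of the 6 libraries differed by 1.41-fold while *Ihh* itself ranged over 26.2-fold. The ratio of *Ihh* to other BMP targets ranged more widely, over 2.52-fold for *Id3*, 9.04-fold for *Smad7*, 9.09-fold for *Smad6* and 11.4-fold for *Id2*. This was examined after the values were seen and is given with no test. *Id1* had the highest r with *Ihh* of all genes tested over these same libraries, so a narrow ratio follows in part from that selection. The wide range of *Ihh* includes the group difference for which it was chosen. Within AT2CTRL *Ihh* ran from 1.61 to 2.31 CPM and the ratio from 0.0872 to 0.111. Within AT2CAB *Ihh* ran from 12.6 to 42.3 CPM and the ratio from 0.101 to 0.123. Among the members, r with *Ihh* was 0.886 for *Gli2*, 0.879 for *Shh*, 0.751 for *Hhip*, 0.685 for *Gli1*, 0.288 for *Smo*, -0.430 for *Ptch1*, -0.689 for *Gli3* and -0.833 for *Sufu*. The highest *Shh* was in AT2CAB replicate 2 and the highest *Ihh* in replicate 3.

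**Figure D5:**
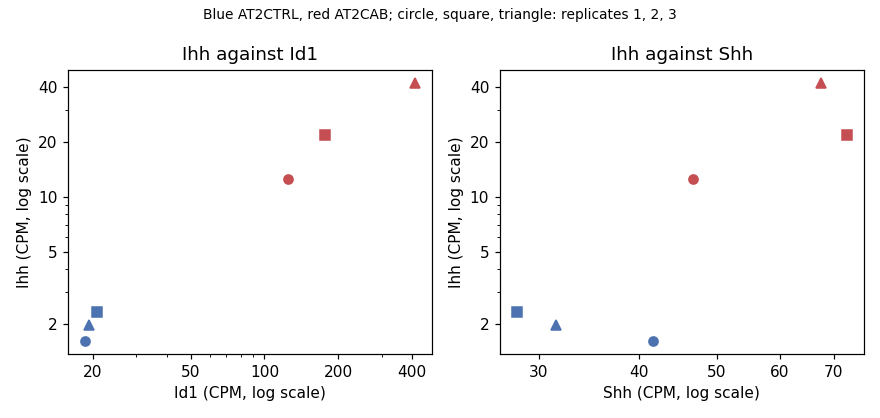
*Ihh* (y axes, CPM, log scale) is set against *Id1* (left) and *Shh* (right) on the x axes (CPM, log scale) in each library, with AT2CTRL in blue, AT2CAB in red and circles, squares and triangles for replicates 1, 2 and 3. With *Id1* the 6 points lie close to one line, the ratio ranging from 0.0872 to 0.123, and with *Shh* the AT2CTRL library highest in *Shh*, replicate 1, is the lowest in *Ihh*.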

How the data were processed

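Per the labels and the study's methods, the authors sorted tdTomato-labeled AT2 cells, sequenced poly(A) RNA on an Illumina HiSeq X, trimmed reads with PRINSEQ and Trimmomatic, aligned them to mm10 with HISAT2 and removed duplicates with SAMtools. The deposited values are raw counts per gene from featureCounts 1.5.3, over exons, without normalization. The file's header gives no option for strand, read pairs, multiple mapping or overlap, so reads shared by overlapping genes were left out. The study's methods speak of counting fragments. In the deposited values, however, between 56.9% and 60.8% of counts from 1 to 20 were even. With no pair option in the header, mates thus appear to have been counted separately, which overstates the precision of low counts.

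Counts were filtered (minimum count 10, edgeR default), scaled by TMM and tested with edgeR 4.0.16 in R 4.3.3 (quasi-likelihood test over all 16723 genes, Benjamini-Hochberg adjustment). Calls needed an adjusted p under 0.05 together with a log2 change beyond 1 in either direction. The standard error is the log2 fold change divided by the square root of F. The study names DESeq2, here the alternative (1.42.0). The scripts were tested on simulated data. Members, lists and tests were chosen with earlier results of these data known. All members, the 2 genes per list furthest from 0, the 5 most like *Ihh* (log2 CPM, prior count 2), genes within 100 kb of it and BMP targets were named. The pathway lists share 1 gene, which counts under each list. Replicate numbers belong to different mice. Same-numbered libraries did not consistently deviate together (r = -0.24, 0.202 and -0.531), so no block was used in the main fit. In its deviation from its group, AT2CTRL replicate 1 was most like AT2CAB replicate 3, the other library with Y-linked reads. These 2 libraries were left out in 1 alternative, and Y-linked reads were not fitted as a covariate. Replicates of a group differed by more than counting noise.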

Additional observations from a re-analysis of the deposited data

How the results depend on the processing

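The 8 members other than *Ihh* stayed below the threshold for a call under all 15 alternatives, and each kept its direction except *Smo*, whose log2 fold change ran from -0.0347 to 0.275 when 1 library was left out. Those of *Ihh* ran from 3.16 to 4.03 when 1 library was left out and were 3.03 in the 4 libraries without Y-linked reads and 3.55 with the replicate block. The number of members called higher, which can only describe *Ihh* and is no test of it, was 0 or 1 with 1 library left out, being 0 without AT2CTRL replicate 1, 2 or 3 or AT2CAB replicate 2. Over all genes, 38 higher and 2 lower became 119 and 25 with DESeq2, and 6 to 59 and 0 to 4 with 1 library left out, the fewest higher without AT2CTRL replicate 2. The lower calls were 1 with upper-quartile factors, library size only or age as a covariate, 5 without the low-count filter, and 8 in the 4 libraries. With the replicate block there were 36 higher and 5 lower, 29 of the 40 calls being shared, and the block changed the call of no member. The cause of these shifts was not tested. Scaling by library size alone moved the median log2 fold change of all genes to 0.12, against -0.0096 with TMM, and turned the direction of no member.

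*Gli1* and *Gli2* had the fewest counts of the members in AT2CAB, and 6 to 108 per library in all. The p-values set the difference between the groups against the spread among 3 mice per group, which edgeR estimates partly from all genes tested. Each group held 1 library with Y-linked reads and 1 mouse of 16 weeks.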
